A study of Mus musculus with 9 samples.

Results

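The CC chemokines are small secreted proteins with 2 adjacent cysteines near their start, and 10 of their genes in the mouse were chosen by name for description in mature megakaryocytes (mMKs) post IR: Ccl2, Ccl3, Ccl4, Ccl5, Ccl6, Ccl7, Ccl8, Ccl9, Ccl12 and Ccl24. The names were matched to the gene names of the array features, which gave 11 features for the 10 members, of 37316 genes named on the array. All 10 members were among the 29410 genes tested, and their signal was well above the local background on all 9 arrays, so the filter on dim features removed none of them.

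CC chemokines bind receptors that couple to inhibitory G proteins, and they draw monocytes, macrophages, eosinophils and lymphocytes toward the cells that release them. In bone marrow, Ccl2 acting on Ccr2 is known for releasing monocytes into the blood, and megakaryocytes, like platelets, store and secrete chemokines. Many CC chemokine genes are induced by inflammatory cytokines and interferons, and atypical receptors take the ligands up without signalling through G proteins.

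The study exposed male mice to 5 Gy of γ-rays over the whole body and measured RNA of their bone marrow mMKs on arrays. The deposited scanner files are those of 1-colour Agilent arrays and were followed here, although the methods text describes an Affymetrix array and other passages speak of sequencing. There were 3 arrays each for sham-irradiated controls (Ctrl), for 1 day post IR (1 dpi) and for 3 dpi, each from a separate experiment with other donor mice. The mMKs came from flushed bone marrow through positive selection for CD41 and then for CD42d, so other marrow cells that carry or bind these antigens may remain in the RNA. The labels give neither the strain nor the age of the mice used for the arrays, and no group carries a genetic change by its label.

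The signal of the arrays differed between the groups before any scaling. The 75th percentile of the log2 intensities was 10.03, 10.62 and 10.66 on the Ctrl arrays, 9.33, 9.45 and 9.43 at 1 dpi, and 10.37, 10.55 and 10.53 at 3 dpi. All 3 arrays of 1 dpi were thus dimmer than the other 6. The percentage of features well above background was 69.1, 79.5 and 80.8 on the Ctrl arrays, 72.3, 74.8 and 75.6 at 1 dpi, and 81.8, 81.6 and 81.8 at 3 dpi. Ctrl replicate 1 was the only array on slide 1 and the other 8 arrays shared slide 2. Levels are given below as log2 intensity minus the 75th percentile of the array (scaled log2 level), and they compare arrays for a single probe, not one gene with another. A gene was called higher or lower at an adjusted p under 0.05 in limma together with at least a 2-fold change, and 3 arrays a group limit the precision of every value.

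The label of the cells was checked against 16 megakaryocyte markers, all of them well above background. Their summed level, in multiples of the 75th percentile of the array, was 184, 165 and 163 on the Ctrl arrays, 167, 155 and 151 at 1 dpi, and 175, 172 and 169 at 3 dpi. The brightest probe among them was that of Pf4, itself a chemokine of the CXC family stored in platelet granules, with a log2 change against Ctrl of 0.09 at 1 dpi (adjusted p = 0.237) and 0.01 at 3 dpi (adjusted p = 0.938). In limma 0 of the 16 markers were called at either time, while 10 at 1 dpi and 7 at 3 dpi had an unadjusted p under 0.05. With each array scaled to its median, 1 megakaryocyte marker was called lower at 1 dpi, and with no scaling between arrays, an alternative added after the values were seen, 10 of the 16 were, at a median log2 change of -1.17, so the level of these markers at 1 dpi depends on the scaling. With no scaling 10941 of all 29410 genes were called lower at 1 dpi, and the median change of all genes was -0.79.

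The comparison of 1 dpi with Ctrl asks what differed soon after the exposure. At 1 dpi 8 of the 10 CC chemokines were called higher than in Ctrl and 0 lower. Among all genes tested, 15.2% were called in either direction and 12.3% were called higher. The median log2 change of the members was 1.66, against 0.25 for all genes. By rank, the changes ran from Ccl7, Ccl12 and Ccl2 through Ccl24 and Ccl8 to Ccl4, Ccl9 and Ccl3, and Ccl6 and Ccl5 were not called. The values of the 2 groups did not overlap for any of the 10 members, in limma all 10 had an unadjusted p under 0.05 with the higher mean at 1 dpi, and 67.5% of all genes had groups that did not overlap. Of all genes 62.1% had an unadjusted p under 0.05, and 39.3% also had the higher mean at 1 dpi. With median scaling, quantile normalization or no scaling between arrays 5 of the 10 members were called higher, without Ccl3, Ccl4 and Ccl9. In these settings 1993, 1943 and 546 of all 29410 genes were called higher.

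At 3 dpi, 6 of the 10 members were called higher than in Ctrl and 0 lower, beside 8.80% of all genes called in either direction and 6.98% called higher. The called members were Ccl2, Ccl5, Ccl7, Ccl8, Ccl12 and Ccl24. Their family's median log2 change was 2.31, against 0.11 for all genes. For Ccl3 and Ccl6 the values of Ctrl and 3 dpi overlapped, for the other 8 they did not, and 47.0% of all genes had groups that did not overlap. By the unadjusted p in limma, 8 members were under 0.05 and higher and 0 were under 0.05 and lower, beside 22.7% and 18.9% of all genes.

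Between the 2 times, 2 of the 10 members, Ccl8 and Ccl24, were called higher at 3 dpi than at 1 dpi, and 0 were called lower; Ccl24 and Ccl4 lay close to the 2-fold limit, and alternatives moved the first out of the calls and the second into them. Of all genes, 8.80% were called in this comparison and 3.97% were called higher. In the same fit 4 members had an unadjusted p under 0.05 with the lower mean at 3 dpi (Ccl3, Ccl4, Ccl6 and Ccl9) and 4 with the higher mean (Ccl5, Ccl7, Ccl8 and Ccl24), beside 29.8% and 22.7% of all genes. The values of 1 and 3 dpi overlapped for Ccl2 and Ccl12, and 65.5% of all genes had groups that did not overlap. The comparisons with Ctrl share the Ctrl arrays, so their values are set side by side and not counted as separate evidence. With 3 arrays against 3, an exact two-sided permutation p cannot go below 0.1, and the p-values here are those of limma, which pools the spread over genes.

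**Figure D1:**
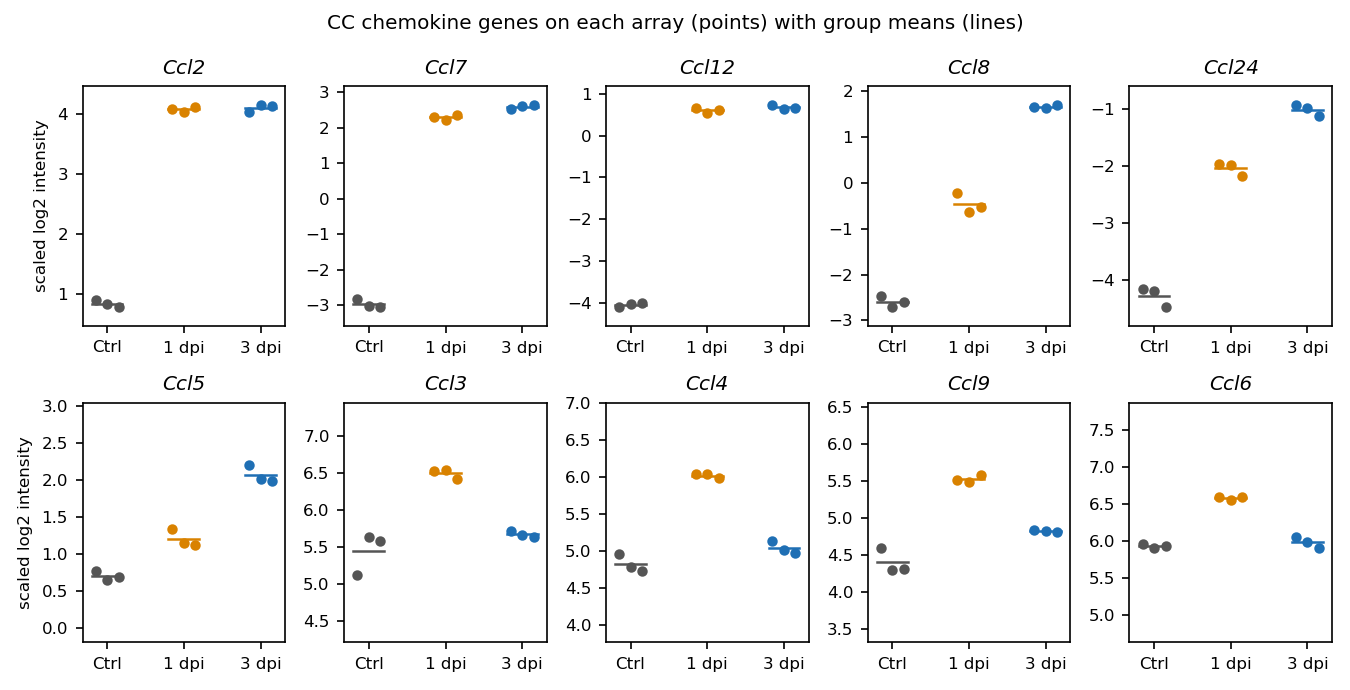
Scaled log2 level of each of the 10 CC chemokines on every array, a point per array, with the mean of each group of 3; each panel has its own axis. Ccl2, Ccl7 and Ccl12 sit at about the same height at 1 and 3 dpi, Ccl8, Ccl24 and Ccl5 are highest at 3 dpi, and under this scaling Ccl3, Ccl4, Ccl6 and Ccl9 are highest at 1 dpi.

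Ccl2, Ccl7, Ccl12 and Ccl8 are the monocyte chemoattractant proteins of the mouse, and Ccl2, Ccl7 and Ccl12 are ligands of Ccr2. Their probes lie on the plus strand of chromosome 11 in mm9, at chr11:81850650-81850709 for Ccl2, chr11:81860656-81860715 for Ccl7, chr11:81916710-81916769 for Ccl12 and chr11:81930108-81930167 for Ccl8. Since the genes are close relatives, the 60-base probes were compared with each other. Among 54 pairs of probes of different members, the longest shared run had a median of 6 bases, and the longest of all was the 13 bases shared by the probes of Ccl12 and Ccl8. The pieces of both probes that hold this run, the first at chr11:81916710-81916739 and the second at chr11:81930123-81930152 (mm9, plus strand), are shown because these are the 2 most similar probes of different members; the capitals mark the shared run.
Ccl12: tCCTTGAACCTTCAtgtctaggctgagagt
Ccl8: ttctgcagCCTTGAACCTTCAcacctgagt

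On the Ctrl arrays the scaled log2 level of Ccl7 was -2.84, -3.03 and -3.05, at 1 dpi it was 2.31, 2.22 and 2.37, and at 3 dpi it was 2.52, 2.62 and 2.64. The 6 arrays post IR were far above the 3 Ctrl arrays, and the 3 arrays of 3 dpi were slightly above those of 1 dpi without overlap. Ccl7 was 38.7-fold higher at 1 dpi than in Ctrl (log2 change 5.27, SE 0.08, n = 3 and 3 arrays, adjusted p = 5.47e-08). At 3 dpi it was 47.4-fold higher (log2 change 5.57, SE 0.08, adjusted p = 9.38e-08), the largest change of the 10 members at both times. The difference between the 2 times, 0.29 on the log2 scale (adjusted p = 0.0198), was below 2-fold and was not called.

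For Ccl12 the scaled log2 level was -4.09, -4.02 and -4.01 in Ctrl, 0.67, 0.55 and 0.60 at 1 dpi, and 0.73, 0.64 and 0.66 at 3 dpi. The Ctrl arrays were low and close together, and the arrays of the 2 times post IR overlapped. The change was 25.0-fold at 1 dpi (log2 change 4.65, SE 0.06, adjusted p = 5.14e-08) and 26.3-fold at 3 dpi (log2 change 4.72, SE 0.06, adjusted p = 8.07e-08). Between the times the log2 difference was 0.07 (adjusted p = 0.377).

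Ccl2, the main ligand of Ccr2 on monocytes, was already clearly detected on the Ctrl arrays, at scaled log2 levels of 0.90, 0.82 and 0.78. It reached 4.07, 4.03 and 4.12 at 1 dpi and 4.03, 4.14 and 4.12 at 3 dpi. Every array post IR was above every Ctrl array, and the 2 times overlapped. The change against Ctrl was 9.42-fold at 1 dpi (log2 change 3.24, SE 0.06, adjusted p = 1.08e-07) and 9.60-fold at 3 dpi (log2 change 3.26, SE 0.06, adjusted p = 1.39e-07), with a difference of 0.03 between the times (adjusted p = 0.75). The intensity of Ccl2 as scanned was 1957, 2791 and 2771 in Ctrl, 10772, 11388 and 11937 at 1 dpi and 21493, 26523 and 25826 at 3 dpi, so the 1 dpi arrays, which are dimmer as a whole, lay between the other groups before scaling. With no scaling between arrays Ccl2, Ccl7 and Ccl12 were called higher at 3 dpi than at 1 dpi, with log2 differences of 1.11, 1.38 and 1.15. In that setting 13318 of all 29410 genes were called higher between the times, and the median log2 difference of all genes was 0.97.

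The scaled log2 level of Ccl8, the other monocyte chemoattractant protein, was -2.46, -2.71 and -2.59 in Ctrl, -0.22, -0.63 and -0.52 at 1 dpi and 1.65, 1.64 and 1.70 at 3 dpi. The 3 groups formed 3 separate steps, each above the one before. Ccl8 was 4.38-fold higher at 1 dpi than in Ctrl (log2 change 2.13, SE 0.11, adjusted p = 6.66e-06) and 19.0-fold higher at 3 dpi (log2 change 4.25, SE 0.11, adjusted p = 3.15e-07). The difference between the 2 times was tested directly and was 4.35-fold (log2 difference 2.12, adjusted p = 1.75e-05). This call was made under every alternative tried, including the 9 that left out 1 array.

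Ccl24, known as eotaxin-2 and a ligand of the eosinophil receptor Ccr3, lies apart from the others, with its probe on the minus strand at chr5:136046485-136046544 (mm9). Its scaled log2 level was -4.16, -4.19 and -4.47 in Ctrl, -1.96, -1.98 and -2.17 at 1 dpi and -0.93, -0.98 and -1.13 at 3 dpi. As for Ccl8, the groups rose in 3 steps without overlap. Ccl24 was 4.71-fold higher at 1 dpi (log2 change 2.24, SE 0.11, adjusted p = 4.44e-06) and 9.60-fold higher at 3 dpi (log2 change 3.26, SE 0.11, adjusted p = 6.58e-07). Between the times the log2 difference was 1.03 (2.04-fold, adjusted p = 0.000289), close to the 2-fold limit: it was 0.96 when 1 dpi replicate 3 was left out and 0.99 when 3 dpi replicate 1 was, and in both cases it was no longer called. After normexp background correction it was 0.74 with the 75th percentile and 0.96 with quantile normalization, again not called.

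Ccl5, also called RANTES, is a ligand of Ccr1 and Ccr3 and draws T cells and monocytes; its probe is on the minus strand at chr11:83339296-83339355 (mm9). The scaled log2 level was 0.77, 0.66 and 0.69 in Ctrl, 1.35, 1.15 and 1.12 at 1 dpi and 2.20, 2.01 and 1.99 at 3 dpi. The groups did not overlap, and the arrays of 3 dpi were the highest. At 3 dpi Ccl5 was called, at 2.57-fold above Ctrl (log2 change 1.36, SE 0.09, adjusted p = 1.91e-05). At 1 dpi the change was 1.41-fold and was not called (log2 change 0.50, SE 0.09, adjusted p = 0.00237), and between the times the log2 difference was 0.86 (adjusted p = 0.000262). With each array scaled to its median this last difference passed 2-fold and was called. With no scaling between arrays the 1 dpi change turned to -0.54, where the median change of all genes was -0.79.

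**Figure D2:**
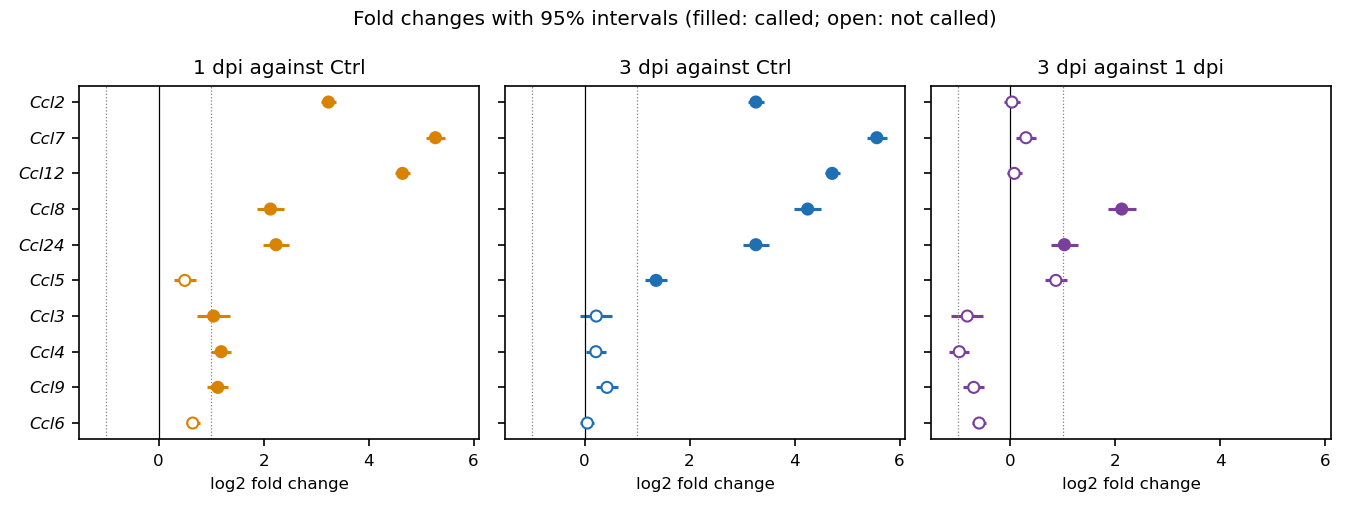
Log2 fold change of each CC chemokine in the 3 comparisons, with its 95% confidence interval as a bar; filled points were called, open points were not, and dotted lines mark 2-fold. Ccl7 has the largest change at both times (5.27 and 5.57), and between the times Ccl8 (2.12) and Ccl24 (1.03) were called.

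The other 4 members are Ccl3 and Ccl4, the macrophage inflammatory proteins (Ccl3 binds Ccr1), and Ccl6 and Ccl9, ligands of Ccr1 made by myeloid cells. Their probes lie close together on chromosome 11 of mm9, on the minus strand at chr11:83388223-83388282 for Ccl9, chr11:83401997-83402056 for Ccl6 and chr11:83461358-83461417 for Ccl3, and on the plus strand at chr11:83478038-83478097 and chr11:83478052-83478111 for the 2 probes of Ccl4. All 4 were bright on the Ctrl arrays, with mean intensities far above the 75th percentile of the array. Which cells gave this signal was not tested. Each had its highest scaled level on the 3 arrays of 1 dpi.

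For Ccl3 the scaled log2 level was 5.12, 5.63 and 5.58 in Ctrl, 6.52, 6.54 and 6.42 at 1 dpi and 5.72, 5.66 and 5.63 at 3 dpi. Ctrl replicate 1 was lower than the other 2 Ctrl arrays, and 3 dpi overlapped with Ctrl. Ccl3 was 2.07-fold higher at 1 dpi (log2 change 1.05, SE 0.13, adjusted p = 0.000449), and without Ctrl replicate 1, which also sits alone on its slide, the log2 change was 0.88 and was not called. At 3 dpi the log2 change was 0.22 (adjusted p = 0.244), and between the times it was -0.82 (adjusted p = 0.00194), short of 2-fold.

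Ccl4 was at 4.97, 4.78 and 4.73 in Ctrl, 6.04, 6.03 and 5.98 at 1 dpi and 5.13, 5.02 and 4.97 at 3 dpi on the scaled log2 scale. The arrays of 1 dpi stood above all others, and those of 3 dpi lay just above Ctrl. The change was 2.29-fold at 1 dpi (log2 change 1.19, SE 0.08, adjusted p = 2.14e-05) and 0.22 on the log2 scale at 3 dpi (adjusted p = 0.0769). From 1 to 3 dpi Ccl4 had a log2 difference of -0.98 (adjusted p = 9.95e-05), just under 2-fold; it was -1.02 without 3 dpi replicate 1 and -1.04 with the mean of all probes, and was called lower in both. Its second, slightly dimmer probe, which shares 46 bases with the first and is therefore no separate measurement, gave 1.35 at 1 dpi and -1.10 between the times, past 2-fold.

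The scaled log2 level of Ccl9 was 4.59, 4.29 and 4.31 in Ctrl, 5.51, 5.49 and 5.58 at 1 dpi and 4.83, 4.83 and 4.82 at 3 dpi. The groups did not overlap, and 3 dpi lay between the other groups. Ccl9 was 2.19-fold higher at 1 dpi (log2 change 1.13, SE 0.09, adjusted p = 4.23e-05) and 1.35-fold higher, not called, at 3 dpi (log2 change 0.43, adjusted p = 0.00709). Ccl6 was at 5.97, 5.91 and 5.94 in Ctrl, 6.60, 6.56 and 6.60 at 1 dpi and 6.06, 6.0 and 5.92 at 3 dpi. Here too the arrays of 1 dpi were highest, with Ctrl and 3 dpi overlapping. At 1 dpi the log2 change of Ccl6 was 0.65, with an SE of 0.06 (adjusted p = 9.18e-05). At 3 dpi it was 0.05 (adjusted p = 0.523), neither of them called, and the latter turned to -0.07 with each array scaled to its median. From 1 to 3 dpi the log2 differences of Ccl9 and Ccl6 were -0.70 (adjusted p = 0.000601) and -0.60 (adjusted p = 0.000216), both below 2-fold. With no scaling between arrays the differences from 1 to 3 dpi turned to 0.26 for Ccl3, 0.11 for Ccl4, 0.38 for Ccl9 and 0.49 for Ccl6, of which none passed 2-fold. The median log2 difference of all genes in that setting was 0.97, above each of these values.

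Whether Ccl3, Ccl4 and Ccl9 were called at 1 dpi depended on how the arrays were scaled. The median log2 change of all genes at 1 dpi was 0.25 under the 75th percentile, -0.07 with each array scaled to its median, 0.00 after quantile normalization and 0.47 after normexp background correction with the 75th percentile. Relative to the median of all genes, the changes were 0.80 for Ccl3, 0.94 for Ccl4, 0.88 for Ccl9 and 0.40 for Ccl6, against 5.03 for Ccl7, 4.40 for Ccl12, 2.99 for Ccl2, 1.99 for Ccl24 and 1.88 for Ccl8. After median scaling the log2 changes of Ccl3, Ccl4 and Ccl9 were 0.73, 0.88 and 0.81, and after quantile normalization they were 0.62, 0.81 and 0.79, all below 2-fold. With no scaling between arrays they were 0.01, 0.16 and 0.09, where the median change of all genes was -0.79. The part of the dimmer 1 dpi arrays in these values was not tested. Ccl2, Ccl7, Ccl8, Ccl12 and Ccl24 were called higher at both times under each of these scalings.

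**Figure D3:**
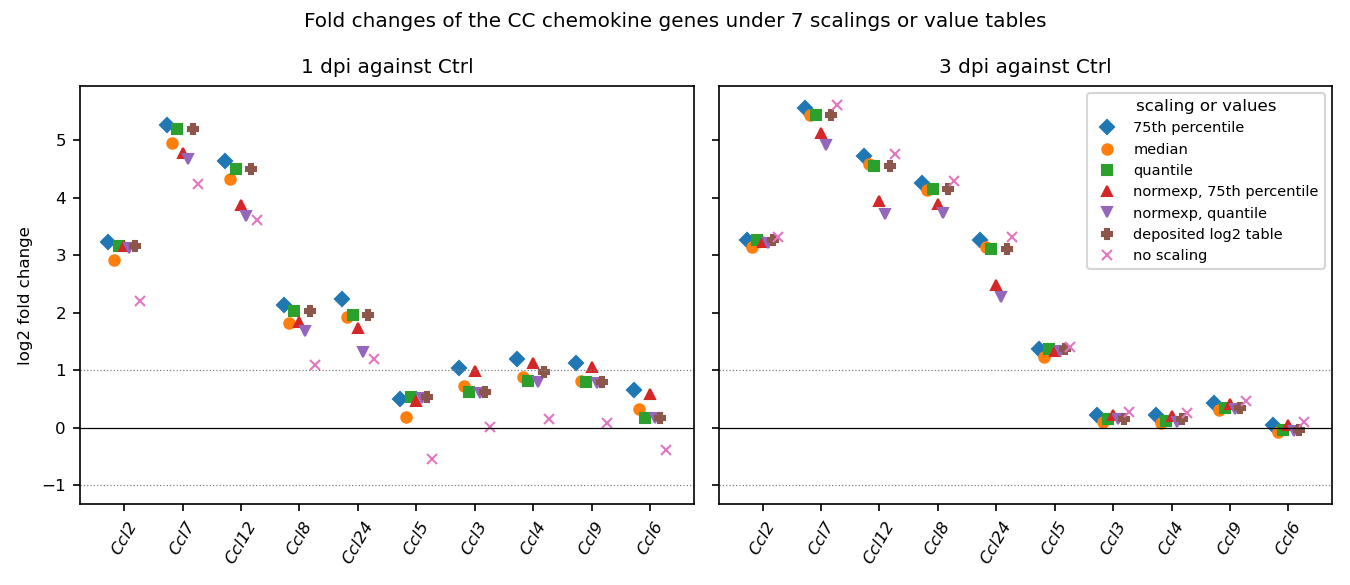
Log2 fold change of each member at 1 dpi and at 3 dpi against Ctrl under 7 scalings or value tables, with dotted lines at 2-fold. Ccl2, Ccl7, Ccl8, Ccl12 and Ccl24 lie above 2-fold at both times under all 7, while at 1 dpi Ccl3, Ccl4 and Ccl9 cross that line and Ccl5 and Ccl6 fall below 0 with no scaling (-0.54 and -0.39). The median change of all genes at 1 dpi with no scaling was -0.79.

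Across the 9 arrays, which fall into 3 groups of replicates, the members were grouped by how alike their levels moved, as a description. Pearson r was 0.999 for Ccl2 with Ccl7, 0.999 for Ccl2 with Ccl12 and 0.982 for Ccl5 with Ccl8. It was 0.989 for Ccl4 with Ccl6 and 0.921 for Ccl3 with Ccl4. Other pairs ranged widely, among them -0.07 for Ccl5 with Ccl6, 0.04 for Ccl3 with Ccl5, 0.775 for Ccl2 with Ccl9 and 0.962 for Ccl7 with Ccl24. All these points share the arrays and the scaling.

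The gene whose level was most like that of each member over the 9 arrays, of all genes tested, was named by the highest r. For Ccl7 it was Ccl2 (r = 0.9991), for Ccl2 it was Ifi204 (0.9992), an interferon-inducible gene, and for Ccl12 it was Stfa1 (0.9997), a stefin that inhibits cysteine proteases. For Ccl8 it was Gpx8 (0.9987), for Ccl24 it was Yap1 (0.998) and for Ccl5 it was Shtn1 (0.9964). For Ccl3 it was Gm10426 (0.9969), for Ccl4 it was Gm8884 (0.9995), for Ccl6 it was Ube2l6 (0.9973), an enzyme of ISG15 conjugation, and for Ccl9 it was Macroh2a3 (0.9972).

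Promoters were compared because members moved together. The RefSeq promoter table (GRCm38.p6) had an entry for 5 of the 10 members, Ccl12, Ccl8, Ccl9, Ccl6 and Ccl3, and none for Ccl2, Ccl4, Ccl5, Ccl7 and Ccl24. The 250 bases before each start are given, at chr11:82101595-82101844 (plus strand) for Ccl12, chr11:82114935-82115184 (plus) for Ccl8, chr11:83578637-83578886 (minus) for Ccl9, chr11:83593088-83593337 (minus) for Ccl6 and chr11:83649379-83649628 (minus) for Ccl3. Capitals mark the matches to 6 motifs searched on both strands: kappaB, AP-1, GAS, ISRE, ETS and TATA.
Ccl12: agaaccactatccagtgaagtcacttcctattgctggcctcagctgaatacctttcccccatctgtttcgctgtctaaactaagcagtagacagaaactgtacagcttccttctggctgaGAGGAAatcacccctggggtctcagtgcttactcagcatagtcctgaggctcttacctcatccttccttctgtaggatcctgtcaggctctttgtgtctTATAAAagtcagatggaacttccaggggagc
Ccl8: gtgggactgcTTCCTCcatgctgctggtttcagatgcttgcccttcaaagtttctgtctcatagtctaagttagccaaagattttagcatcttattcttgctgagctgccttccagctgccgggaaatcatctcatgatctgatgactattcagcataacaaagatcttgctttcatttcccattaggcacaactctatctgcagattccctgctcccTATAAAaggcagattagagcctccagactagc
Ccl9: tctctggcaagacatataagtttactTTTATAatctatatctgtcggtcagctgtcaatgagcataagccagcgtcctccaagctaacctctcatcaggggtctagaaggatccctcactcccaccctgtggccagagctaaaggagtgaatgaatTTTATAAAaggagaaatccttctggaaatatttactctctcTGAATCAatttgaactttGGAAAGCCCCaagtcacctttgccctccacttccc
Ccl6: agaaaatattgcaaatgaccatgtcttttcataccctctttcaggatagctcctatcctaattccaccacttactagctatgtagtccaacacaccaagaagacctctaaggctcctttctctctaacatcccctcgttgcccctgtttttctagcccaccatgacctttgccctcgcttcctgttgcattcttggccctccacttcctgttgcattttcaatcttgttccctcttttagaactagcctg
Ccl3: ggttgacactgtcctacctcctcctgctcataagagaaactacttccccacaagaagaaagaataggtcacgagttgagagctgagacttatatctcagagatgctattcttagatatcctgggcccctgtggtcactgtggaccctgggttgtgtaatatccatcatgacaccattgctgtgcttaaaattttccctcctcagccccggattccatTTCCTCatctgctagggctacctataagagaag

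A TATA match, the letters TATAAA, was present in 3 of the 5 promoters, those of Ccl12, Ccl8 and Ccl9, and in 12.4% of the 32851 promoters in the table. Its first base was 31 bases before the start in Ccl12 and 32 in Ccl8. An ETS match, the letters GAGGAA or their reverse complement, was present in Ccl12, Ccl8 and Ccl3, and in 23.3% of all promoters. Only this spelling was searched, so a promoter without such a match may hold other spellings of ETS sites. A kappaB match and an AP-1 match, the latter spelled TGANTCA, were found in Ccl9, and in 7.25% and 6.75% of all promoters, with the last base of the AP-1 match at 47 and the first base of the kappaB match at 35 bases before the start. Matches to GAS, spelled TTCNNNGAA, were in 0 of the 5 members' promoters and in 7.02% of all. Matches to ISRE, spelled GAAANNGAAA, were in 0 of the 5 and in 2.98% of all, which says only that these letters are not in the windows shown; 2 of the TATA matches in Ccl9 overlap each other on opposite strands. Between Ccl12 and Ccl8 the longest shared runs had 8 bases, among them ggaaatca, which begins 128 bases before the start in both. The longest shared run of any 2 members was the 13 bases gccctccacttcc of Ccl9 and Ccl6. These matches are descriptions of the letters and were not tested as sites.

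Of the 13 other CC ligands listed, 11 had a feature on the array and 8 were tested; Ccl20, Ccl22 and Ccl26 were not well above background on all 3 arrays of any group. In limma 2 of the 8 were called higher at 1 dpi, 1 at 3 dpi and 0 between the times, where 4 had an unadjusted p under 0.05. The 1 called at both times was Ccl19, a ligand of Ccr7 that guides dendritic cells and T cells, with a log2 change of 1.02 at 1 dpi (adjusted p = 0.00161) and 1.60 at 3 dpi (adjusted p = 0.000243). The other was Ccl11, eotaxin, at 1.25 at 1 dpi (adjusted p = 0.00953), which was well above background on 2 of the 3 arrays of Ctrl and on 2 of 3 at 1 dpi. Neither call at 1 dpi was made after median scaling, where the log2 changes were 0.71 for Ccl19 and 0.94 for Ccl11, nor without Ctrl replicate 1, where both were 0.94. Without 1 dpi replicate 1 the change of Ccl19 was 0.99, again not called. The 3 dpi change of Ccl19 was 0.70 after normexp with the 75th percentile and 0.58 after normexp with quantile normalization, and was called in neither.

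Among 14 CC receptor genes, all tested, 4 were called at 1 dpi, 2 of them higher (median log2 change 0.41). This median depended on the setting: it was 0.0518 without Ctrl replicate 1, 0.099 with median scaling and 0.695 after normexp with the 75th percentile. It turned negative after quantile normalization, in the deposited table and with no scaling between arrays. At 3 dpi 6 were called, 4 of them higher (median 0.65). The calls at 1 dpi were 1 higher and 5 lower with no scaling between arrays, beside 546 higher and 10941 lower of all 29410 genes. Ccr2, the receptor of Ccl2, Ccl7 and Ccl12, had a mean scaled log2 level of 1.27 ± 0.15 (SD, n = 3) in Ctrl, 1.05 ± 0.07 at 1 dpi and 2.90 ± 0.12 at 3 dpi. It was called at 3 dpi (log2 change 1.63, adjusted p = 1.21e-05) and not at 1 dpi (-0.21, adjusted p = 0.0962), where it was called lower with no scaling between arrays (-1.25), and the difference between the times was 1.84 (adjusted p = 1.68e-05).

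The atypical receptors take up chemokines or bind them without G protein signalling. Ackr4, which removes Ccl19 and its relatives, rose by 2.52 on the log2 scale at 1 dpi (adjusted p = 0.000266) and 3.88 at 3 dpi (adjusted p = 3.63e-05). At 3 dpi, Ackr1, the Duffy antigen, rose by 2.35 (adjusted p = 3.67e-07) and Ackr2, which degrades inflammatory CC chemokines, by 1.96 (adjusted p = 7.46e-07); in the deposited table the change of Ackr2 was 0.98 and was not called. Ccrl2, which presents chemerin, rose by 1.90 at 1 dpi (adjusted p = 6.19e-07; 0.86 and not called with no scaling between arrays) and was at 0.53, below 2-fold, at 3 dpi (adjusted p = 0.000303). The difference between the times was called for Ackr1 (1.52), Ackr2 (1.11), Ackr4 (1.36) and Ccr2, higher at 3 dpi, and for Ccrl2 (-1.37), lower. Of the 14, 11 were called higher and 0 lower between the times with no scaling between arrays, with Ccrl2 at -0.29. Beside them 13318 of all 29410 genes were called higher and 148 lower. The difference of Ackr2 was 0.25 after normexp with the 75th percentile, 0.78 after normexp with quantile normalization, 0.35 with the mean of all probes and -0.15 in the deposited table, and was called in none of these.

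Ccr7 and Ccr6, receptors of lymphocytes and dendritic cells for Ccl19 and Ccl20, were the 2 called lower at both times. The log2 change of Ccr7 was -1.96 at 1 dpi (adjusted p = 1.21e-06) and -1.85 at 3 dpi (adjusted p = 1.11e-06). For Ccr6 it was -1.58 at 1 dpi (adjusted p = 3.6e-05) and -1.05 at 3 dpi (adjusted p = 0.000355), and the latter was -0.98 and not called without Ctrl replicate 1. After normexp with the 75th percentile Ccr6 was called at neither time (-0.44 and -0.71).

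**Figure D4:**
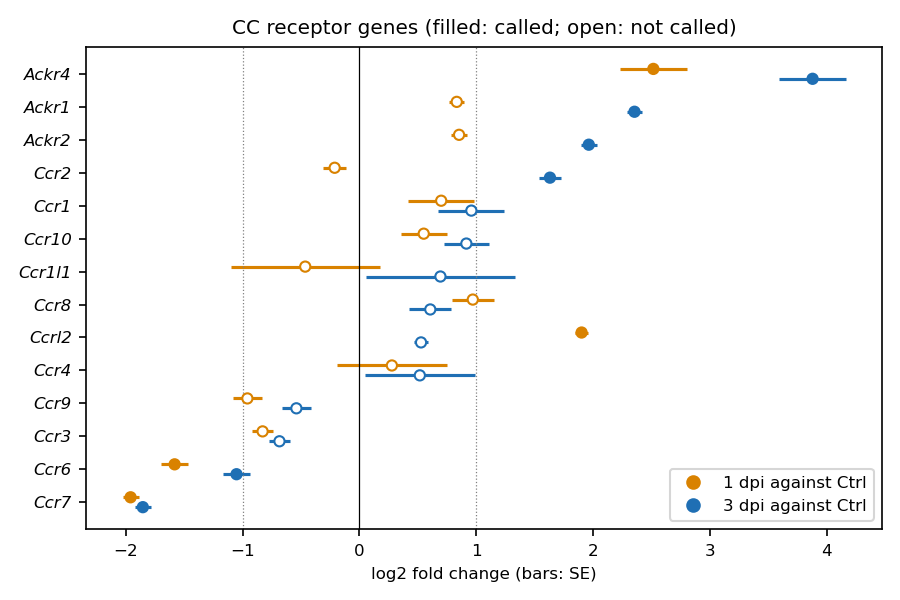
Log2 fold change of the 14 CC receptor genes at 1 dpi and at 3 dpi against Ctrl, with the SE as bars; filled points were called. Ackr4 was called higher and Ccr6 and Ccr7 lower at both times, and Ccr2, Ackr1 and Ackr2 were called at 3 dpi and not at 1 dpi.

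Of 25 genes of signalling from chemokine receptors, such as G proteins, arrestins, receptor kinases and Rac regulators, 0 were called at either time against Ctrl in limma. The median log2 change was 0.07 at 1 dpi and -0.12 at 3 dpi, and the changes ran from -0.73 to 0.54 and from -0.76 to 0.80. An unadjusted p under 0.05 was seen for 13 of them at 1 dpi and 12 at 3 dpi. The methods' two-sample test with its own threshold and no minimum fold counted 9 rises and 6 falls at 1 dpi, and 3 rises and 6 falls at 3 dpi. With median scaling 1 of the 25 was called lower at 1 dpi, and with no scaling between arrays 11 were, beside 10941 of all 29410 genes. Of the 23 tested in the deposited table, 1 was called higher at 1 dpi and 2 were called lower between the times. Between the times Rgs1, a regulator that ends G protein signalling, named after its value was seen, was called lower at 3 dpi (-1.15), the 1 call among the 25. With median scaling, quantile normalization, or normexp with quantile normalization 0 of the 25 were called between the times. With no scaling between arrays 12 were called higher and 0 lower, beside 13318 and 148 of all 29410 genes. The call of Rgs1 thus depends on the scaling.

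Of 30 inducers and regulators of CC chemokine genes, 11 rose and 0 fell at 1 dpi by these criteria, with a median log2 change of 0.69. The 3 largest rises were Ifnb1, Csf2 and Irf7. Ifnb1, the gene of interferon β, was not well above background on any Ctrl array and was on all 3 arrays of 1 dpi. Its rise is therefore given as a lower bound of 2.59 on the log2 scale, or at least 6.02-fold higher, under the main scaling. The limma change, which takes the Ctrl values as measured, was 2.94 (adjusted p = 1.18e-05). After normexp with quantile normalization the log2 change of Ifnb1 was 0.75 and was not called. Csf2, which encodes GM-CSF, changed by 2.41 (adjusted p = 3.13e-06; well above background on 2 of 3 Ctrl arrays), and Irf7, a transcription factor of the interferon response, by 2.14 (adjusted p = 1.45e-06). At 1 dpi 7 of the 30 were called higher with median scaling and 6 after normexp with quantile normalization, and with no scaling between arrays 4 were called higher and 4 lower, at a median of -0.35. Of all 29410 genes 546 were called higher and 10941 lower with no scaling, at a median of -0.79.

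At 3 dpi 5 of the 30 rose and 0 fell by these criteria, with a median of 0.37. The 3 largest rises were Csf2 at 3.17 (adjusted p = 7.27e-07), Ifng, the gene of interferon γ, at 2.21 (adjusted p = 1.73e-06) and Il6 at 1.79 (adjusted p = 1.75e-06). By the unadjusted p in limma, 1 of the 30 was under 0.05 and lower at 1 dpi, and 3 were at 3 dpi. Between the times 3 were called lower at 3 dpi, named after their values were seen: Ifnb1 (-2.18), Jun (-1.78) and Irf1 (-1.59). Of the 30, 10 were called higher and 1 lower between the times with no scaling between arrays, beside 13318 higher and 148 lower of all 29410 genes. Beside these, Ccl2, Ccl7 and Ccl12 differed between the times by 0.03, 0.29 and 0.07, while Ccl3, Ccl4, Ccl6 and Ccl9 had log2 differences of -0.82, -0.98, -0.60 and -0.70, below 2-fold. Leaving out the scaling turned the latter above 0, in a setting where the median of all genes was 0.97.

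Macrophages and other marrow cells also make CC chemokines, and their markers moved with the groups. In these bulk samples, fewer cells of a type and less RNA per cell cannot be told apart. The sums below add scaled intensities over the tested markers of a list, in multiples of the 75th percentile of the array; bright probes weigh most in them, and they compare arrays, not cell types. Of 15 macrophage markers, the higher calls were 6 at 1 dpi and 11 at 3 dpi, and the lower calls were 2 and 0. Their sum was 63.6, 56.9 and 54.7 on the Ctrl arrays, 85.6, 80.2 and 84.4 at 1 dpi and 152, 149 and 147 at 3 dpi, with the probe of Csf1r the brightest. The sum thus had the same order of groups as Ccl8, Ccl24 and Ccl5, and its part in those results was not tested.

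Stromal and endothelial markers had the same order of groups. Of 11 stromal markers 7 were called higher and 0 lower at each time, with sums of 10.5, 10.1 and 10.6 in Ctrl, 51.5, 44.3 and 48.3 at 1 dpi and 96.4, 88.2 and 95.4 at 3 dpi, and the probe of Cxcl12 was the brightest. Of 10 endothelial markers 5 were called higher at 1 dpi and 8 at 3 dpi, and 0 lower. Their sums were 3.97, 3.54 and 3.64, then 7.70, 6.76 and 7.06, and then 13.9, 11.6 and 11.9, with the probe of Stab2 the brightest. Of 13 markers of T and NK cells 4 were called higher at 1 dpi and 7 at 3 dpi, with mean sums of 34.1 in Ctrl, 48.7 at 1 dpi and 43.1 at 3 dpi and the probe of Nkg7 the brightest; between the times 4 of them were called higher and 0 lower at 3 dpi, unlike the order of the sums. Their part in the levels of Ccl2, Ccl7, Ccl12, Ccl8, Ccl24 and Ccl5 was not tested.

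The sums of the next 5 lists were highest at 1 dpi, as Ccl3, Ccl4, Ccl6 and Ccl9 were, on the arrays whose 75th percentile was lowest. The neutrophil sum (12 markers, 2 called higher at 1 dpi and 0 at 3 dpi, brightest probe Mpo) was 1302, 1333 and 1325 in Ctrl, 2144, 2008 and 1989 at 1 dpi and 1408, 1267 and 1338 at 3 dpi. For 10 monocyte markers (2 called higher at 1 dpi and 3 at 3 dpi, brightest probe Ly6c2, and Ccr2 among them) it was 356, 328 and 326, then 585, 554 and 548, and then 377, 355 and 365. Gene by gene the monocyte markers did not follow this order: between the times 2 were called higher and 1 lower at 3 dpi, with a median log2 difference of 0.26. For 8 basophil and mast cell markers (4 and 1 called higher, brightest probe Prss34) it was 178, 158 and 152, then 458, 463 and 454, and then 294, 279 and 269. The eosinophil sum (8 markers, 0 called, 5 at 1 dpi and 3 at 3 dpi with an unadjusted p under 0.05 in limma, brightest probe Prg2) was 798, 844 and 816, then 1284, 1184 and 1206, and then 837, 768 and 816. The dendritic sum (7 of 8 markers tested, Xcr1 not well above background, with 2 rises and 2 falls called at 1 dpi and 1 fall at 3 dpi, brightest probe Siglech) was 23.5, 37.5 and 38.4, then 66.5, 62.8 and 61.3, and then 37.5, 35.0 and 34.5. The calls of the neutrophil and of the T and NK markers at 1 dpi were lost with each array scaled to its median. After quantile normalization the median log2 change at 1 dpi was below 0 for the neutrophil (-0.165), eosinophil (-0.414) and monocyte markers (-0.064). Under the main scaling these medians were 0.428, 0.0928 and 0.308. The basophil and mast cell (0.836) and dendritic (0.335) medians stayed above 0. From 1 to 3 dpi the neutrophil and eosinophil medians were then 0.187 and 0.13, in place of -0.502 and -0.231. With no scaling between arrays the higher calls at 1 dpi were 2 of the macrophage, 4 of the stromal and 1 of the basophil and mast cell markers, and 0 in every other marker list. The lower calls there were 5 of the macrophage, 5 of the monocyte, 4 of the eosinophil and 3 of the neutrophil markers. Also called lower were 3 dendritic, 2 T and NK, 1 stromal, 1 endothelial and 1 basophil and mast cell marker. B cell, erythroid and megakaryocyte markers had 10, 7 and 10 lower calls. The part of these markers in the 1 dpi levels of Ccl3, Ccl4, Ccl6 and Ccl9 was not tested.

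Markers of B cells and erythroid cells were lower for most genes. Of 11 B cell markers 10 were called lower at 1 dpi and 9 at 3 dpi, with mean sums of 33.2 in Ctrl, 7.40 at 1 dpi and 9.01 at 3 dpi and the probe of Cd79b the brightest. Ccr6 and Ccr7, which B cells also express, were lower at both times beside them, and the part of the B cell markers in this was not tested. Of 10 erythroid markers, 7 at 1 dpi and 9 at 3 dpi were called lower and 2 at 1 dpi higher, with mean sums of 95.3, 216 and 34.0 and the probe of Hba-a1 the brightest; the sum was thus highest at 1 dpi although most of these markers were lower.

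**Figure D5:**
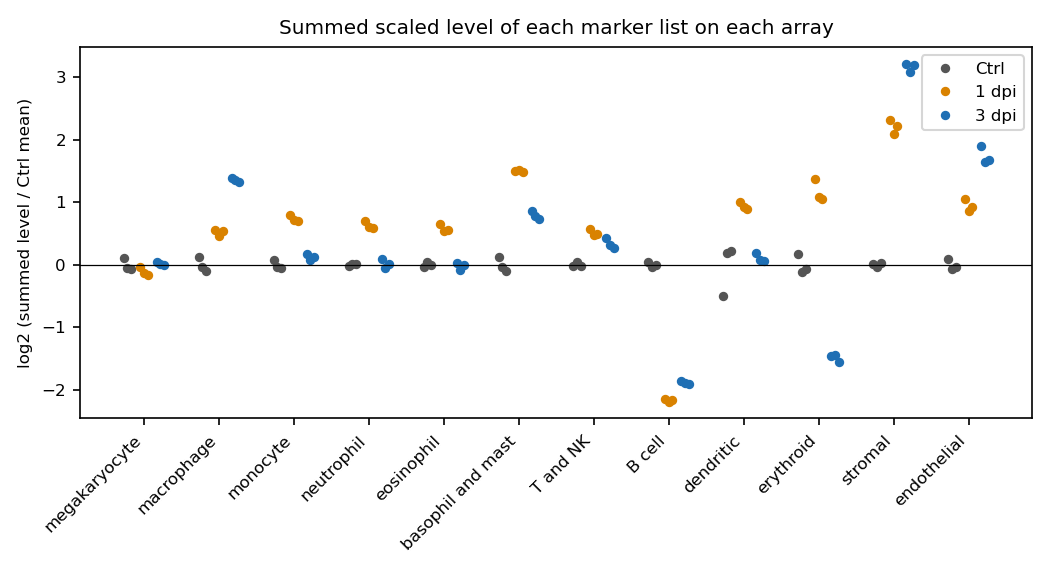
Summed scaled level of the markers of each cell type on every array, as log2 of its ratio to the mean of the Ctrl arrays, a point per array and coloured by group. The macrophage, stromal and endothelial sums are highest at 3 dpi, the neutrophil, monocyte, basophil and mast, eosinophil, dendritic, erythroid, and T and NK sums are highest at 1 dpi, and the megakaryocyte sums (151 to 184 on the 9 arrays) stay close to 0.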

How the data were processed

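Total RNA of 9 mMK samples was measured, 3 each for Ctrl, 1 dpi and 3 dpi. The deposited scanner files hold the processed intensity from Feature Extraction 10.7.1.1, background-subtracted and detrended within each array and not scaled between arrays. The deposited matrix holds log2 values, each gene with a single value; its column medians were 5.79 to 5.87, and for each member 1 probe equalled the quantile-normalized log2 intensity within 0.00362, although the authors do not state the method. All values here start from the scanner files: control spots and outlier flags were left out, which removed 20 of 56605 probes, spots of a probe were averaged and log2 intensities were set against the 75th percentile of the array. A probe was kept when some group had it well above background in 3 of 3 arrays, and each gene was read from its brightest probe. R 4.3.3 with limma 3.58.1 fitted 1 mean per group over 9 arrays, with a two-sided moderated test and Benjamini-Hochberg adjustment over 29410 genes. Named were all 10 members, of each other list the called genes with the 3 largest rises and falls against Ctrl, every called CC receptor, of each marker list the gene with the brightest probe and those not well above background, and for each member the gene with the highest r. Alternatives covered scaling, background correction, filters, probes, the deposited table, thresholds, blocks and leaving out each array. Some genes of these lists are not reported here and were taken out of the list counts, medians and figure, not because of their values. The members and lists were chosen with earlier results of these data known.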

Additional observations from a re-analysis of the deposited data

Results flagged for a closer look

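In a direct limma test of 3 dpi against 1 dpi, 8 of the 10 members had an adjusted p under 0.05, beside 44.6% of all genes, and 2 of them also differed by at least 2-fold, beside 8.80% of all genes, so that their change against Ctrl differed between the times. Ccl8 had a log2 difference of 2.12 (adjusted p = 1.75e-05), with the lowest array of 3 dpi above the highest of 1 dpi. Ccl24 had a log2 difference of 1.03 (adjusted p = 0.000289), likewise higher on 3 of 3 arrays, and fell below 2-fold under both normexp settings and when 1 dpi replicate 3 or 3 dpi replicate 1 was left out. The cause of either difference was not tested.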

How the results depend on the processing

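Of the log2 changes of the 10 members, 388 kept their direction and their side of the threshold over the alternatives other than leaving out an array, 33 passed it newly, 19 no longer passed it and 10 turned in sign. Ccl2, Ccl7, Ccl8, Ccl12 and Ccl24 were called at 1 and 3 dpi, and Ccl5 at 3 dpi, under every alternative. The values not well above background and 3 arrays a group limit what dim genes such as Ccl11 can show.

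At 1 dpi the CC chemokines called numbered 5 in place of 8 with median scaling, quantile normalization, normexp with quantile normalization, the deposited table and no scaling between arrays (added after the values were seen), each without Ccl3, Ccl4 and Ccl9. They numbered 7 with normexp and the 75th percentile, where Ccl3 was at 0.99 and not called. The median change of all genes moved with them, as given above, and was -0.79, 0.16 and 0.97 with no scaling in the 3 comparisons. Of all calls at 1 dpi, 81.1% were higher in the main setting, 48.8% with median scaling, 56.3% with quantile normalization, 68.7% with normexp and quantile normalization, 50.3% in the deposited table and 4.75% with no scaling. At 3 dpi 79.4% were higher, and 66.1% in the deposited table. Between the times 45.2% were higher, and 67.2% with median scaling, 62.9% with quantile normalization, 24.9% with normexp and the 75th percentile, 26.7% with no filter on dim probes, 60.3% in the deposited table and 98.9% with no scaling. The cause was not tested.

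From 1 to 3 dpi 1 member was called with either normexp setting, 6 with no scaling and 8 with no minimum fold or the methods' two-sample test, whose own construction (no 2-fold limit) adds calls. With the normexp settings, genes called were 2799 and 1667 at 1 dpi, 1292 and 1146 at 3 dpi and 1603 and 1087 between the times. With no minimum fold they were 16443, 9416 and 13125, with the methods' test 15674, 10523 and 16909, and after Benjamini-Hochberg on that test 12626, 7120 and 14319. No scaling gave 11487 at 1 dpi and 13466 between the times, and no filter on dim probes gave 4489 between the times. The cause was not tested beyond the wider thresholds.

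With no scaling the sign turned at 1 dpi for Ccl5 (-0.54), Ccl6 (-0.39) and Ccl19 (-0.0166), and between the times for Ccl3 (0.26), Ccl4 (0.11), Ccl6 (0.49), Ccl9 (0.38), Ccl11 (0.67), Il6 (0.80) and Irf7 (0.19). Ccl6 at 3 dpi was -0.0715 with median scaling, -0.0415 with quantile normalization, -0.0473 with normexp and quantile normalization and -0.0418 in the deposited table. Between the times, normexp with the 75th percentile gave -0.23 for Ccl19 and -0.27 for Ccr6, and the deposited table gave -0.15 for Ackr2. The cause was not tested.

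Leaving out each of the 9 arrays gave 7 to 8 members called at 1 dpi, 6 to 6 at 3 dpi and 1 to 2 between the times, and 3599 to 5378, 2363 to 2775 and 2269 to 2881 genes. With the slide as a block, 7 members were called at 1 dpi, Ccl3 at 0.88 no longer among them. Slide 1 holds only Ctrl replicate 1, so this fit in effect leaves that array out and is no separate check. The replicate block gave 4273, 2498 and 2494 genes called and 8, 6 and 2 CC chemokines, and it changed no CC chemokine call. Replicate numbers need not pair experiments: over 9 pairs of arrays with equal numbers, r of the residuals ran from -0.107 to 0.128 and was over 0.1 in 1.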
